A study of Mus musculus with 2 samples.

Results

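Barcodes with over 10% of their unique molecular identifiers (UMIs, each counting 1 captured RNA molecule) on the mitochondrial genome are the subject of this description. They were 292 of the 13021 barcodes in the deposited count matrices. The knockout library held 269 of them among 6706 barcodes (4.01%, Clopper-Pearson 95% interval 3.55 to 4.51%), and the wild type library 23 among 6315 (0.364%, 0.231 to 0.546%). Both libraries were made from peritoneal cells of mice, sorted for the surface antigen F4/80, which macrophages carry. Mice of the knockout group lacked Ankrd22 (Ankrd22-/-) through CRISPR/Cas9, and the other group was wild type (Ankrd22+/+). The capture used the 10x Genomics 3' version 3 chemistry. Each genotype had 1 library, and the labels used here give neither the age nor the number of the mice, nor the deleted part of the gene. Ankrd22 itself had 0 UMIs in both libraries, so it does not check the genotype labels. With 1 library per genotype no difference could be tested, and every interval given covers counting error only.

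Members were chosen by their measured mitochondrial share of UMIs, so their shares and their low depths are given as description. Members in the knockout library had a median mitochondrial share of 37.9% (range 10.1 to 84.8%), and the other knockout barcodes a median of 1.47%. In the wild type library the members' median was 20.1% (range 10.2 to 75.9%), against 0.691% for the others. Around the threshold, the 10 knockout members with shares of 10 to 12% had a median of 1565 UMIs, 175.5 of them mitochondrial. The 18 knockout barcodes just below it, with shares of 8 to 10%, had a median of 1812 UMIs and 171 mitochondrial UMIs. In the wild type library, 5 members lay just above the threshold (median 1336 UMIs) and 3 barcodes just below it (median 1172 UMIs). There was thus no step in depth at 10%. No measure of membrane integrity or viability was among the files, so the barcodes are called here by their mitochondrial share and not as damaged cells.

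The mitochondrial genome encodes 2 ribosomal RNAs, 13 mRNAs for subunits of the respiratory chain and ATP synthase, and a set of tRNAs, all made inside the organelle and enclosed by its membranes. Most cellular mRNA lies in the cytosol, free or on ribosomes, or at the endoplasmic reticulum, whereas some long noncoding RNAs and incompletely spliced transcripts are held in the nucleus. A raised mitochondrial share is used in single-cell work as a sign of a cell that has lost cytosolic RNA. Peritoneal macrophages are the resident phagocytes of the abdominal cavity, and the large type depends on the transcription factor GATA6.

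The chemistry primes on runs of A, which most mRNAs carry as a tail, and ribosomal RNAs are not expected to carry a long one. Stretches of A within the 3 transcripts on which the results turn are therefore shown, read from the GRCm38 annotation, with the run of A in capitals. The first 4 lie in mt-Rnr2, the large mitochondrial ribosomal RNA (chrM:1094-2675), and the next 2 in Gm42418, a noncoding gene model at a ribosomal RNA repeat sequence on chromosome 17, and in the annotated microRNA gene Mir6236 on chromosome 9.
mt-Rnr2, chrM:1442-1471, plus strand: agctggttacccAAAAAAtgaatttaagtt
mt-Rnr2, chrM:1476-1505, plus strand: tttaaacttgctAAAAAAAcaacaaaatca
mt-Rnr2, chrM:1544-1573, plus strand: cttctggaacggAAAAAAcctttaatagtg
mt-Rnr2, chrM:2258-2287, plus strand: acctcggagaatAAAAAAtcctccgaatga
Gm42418, chr17:39847155-39847184, plus strand: gcgtttactttgAAAAAAttagagtgttca
Mir6236, chr9:110281380-110281409, plus strand: tgggggtggagaaagAAAAAAAAtcaataa
The mature microRNA of that locus in RefSeq, with its seed (bases 2 to 8) in capitals, lies upstream of the run at chr9:110281353-110281371.
mmu-miR-6236: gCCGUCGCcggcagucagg
Runs of at least 6 A were counted on the transcript strand. mt-Rnr2 held 4 in 1582 bases, Gm42418 held 1 in 1831 bases and Mir6236 held 1 in 123 bases. The small mitochondrial ribosomal RNA mt-Rnr1 held none in 955 bases, its longest run being 5, and the model Gm26917 held none in 3329 bases. Such a run is common, being present in 42.9% of all 55450 gene models and in 43.3% of the 12128 models of 900 to 2000 bases. These letters describe the transcripts and do not show where priming took place.

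Members held about as many mitochondrial UMIs as other barcodes of the knockout library, and more than others of the wild type library, beside far fewer other UMIs in all. The median member of the knockout library had 279 mitochondrial UMIs, against 234 in the other barcodes. Its other UMIs numbered 398 (range 87 to 4617) against 15887, or 2.51%. The median wild type member had 209 mitochondrial UMIs against 85, and 409 other UMIs against 14500.5, or 2.82%. No barcode had under 500 UMIs in the knockout or under 502 in the wild type matrix, so a barcode with few other UMIs is in them only if its mitochondrial UMIs fill the rest, and the mitochondrial count per member is to be read with that limit. Genes detected per barcode were 266 against 3531 in the knockout library and 289 against 3098 in the wild type. Thinned to 500 other UMIs, the 110 knockout members that were deep enough showed a median of 362 genes against 339, so at equal depth they were no less diverse. For this, 159 knockout members and 13 of the 23 wild type members were left out as too shallow, and the remaining 10 wild type members had 373 genes against 317.

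**Figure D1:**
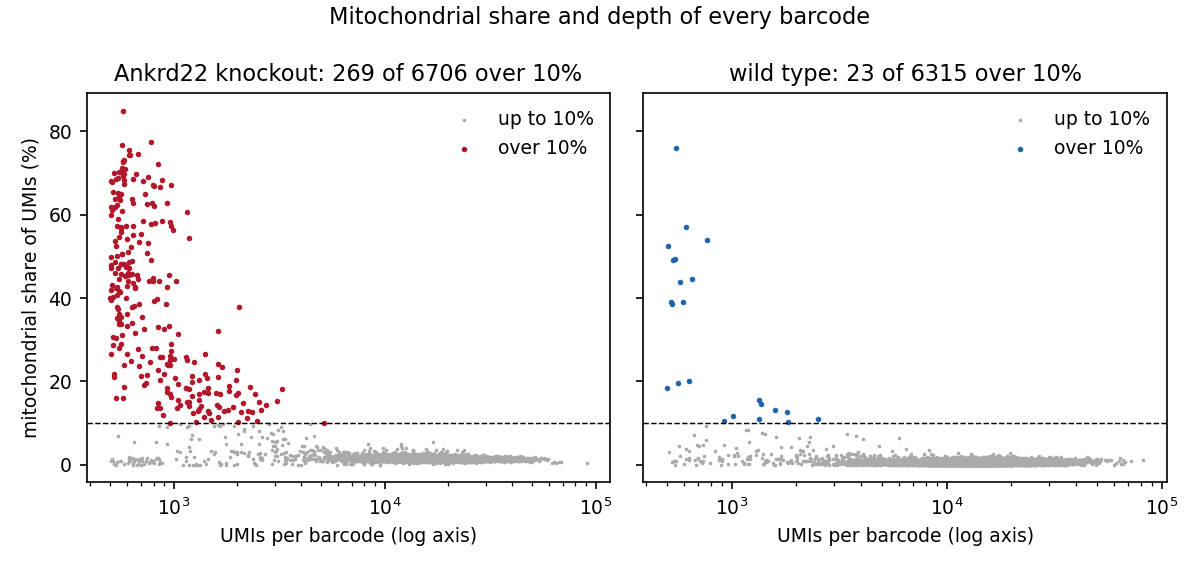
Mitochondrial share of UMIs in percent (vertical axis) against all UMIs of a barcode (horizontal axis, log scale), 1 point per barcode and 1 panel per library, with the 10% threshold as a dashed line. The 269 knockout members (red) and 23 wild type members (blue) lie at low depth, with medians of 722 and 636 UMIs, and no barcode lies below 500.

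Low depth and a high mitochondrial share did not always go together. In the knockout library, 252 of the 352 barcodes with under 2000 UMIs were members (71.6%), and in the wild type library 22 of 114 (19.3%). The 100 other shallow knockout barcodes had a median of 9 mitochondrial UMIs beside 861.5 others. Conversely 252 of 269 knockout members (93.7%) and 22 of 23 wild type members (95.7%) had under 2000 UMIs. Across the libraries 15 barcode sequences occurred in both, and 0 members were among them.

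Within the mitochondrial UMIs, which the rule used only as a sum, members held more ribosomal RNA and less mRNA. The mitochondrial ribosomal RNAs made up 36.9% of mitochondrial UMIs in knockout members (95% interval 36.6 to 37.3%) and 15.2% in the other knockout barcodes. Among wild type barcodes they were 24.6% (23.4 to 25.8%) and 13.8%. mt-Rnr2, the RNA of the large subunit, was 27.5% against 11.4% for the knockout and 20.1% against 11.4% for the wild type. mt-Rnr1, that of the small subunit, was 9.45% against 3.82% and 4.52% against 2.44%. Both ribosomal RNAs thus took a larger share of the mitochondrial UMIs in members of either library. The difference held for most knockout members, whose ribosomal share ranged from 4.32 to 94.2% and had quartiles of 27.8 and 45.8% around a median of 36.1%, against a median of 14.5% in other barcodes. In wild type members the quartiles were 17.7 and 26.8% around 20%, against 12.4%.

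Counted per barcode, the 2 kinds of mitochondrial RNA parted. Knockout members held on average 110.5 ribosomal UMIs against 38.6 in other barcodes, 2.87-fold more, but 188 mRNA UMIs against 215, 0.877-fold. Wild type members held 55.3 ribosomal UMIs against 15.3, 3.62-fold more, and 170 mRNA UMIs against 94.99, 1.79-fold more. A ribosomal surplus was therefore present in both libraries, while the mitochondrial mRNA count was above that of other barcodes only in the wild type sums; a test of that difference was not possible. UMIs on mitochondrial tRNAs were few, at 0.113% against 0.301% in the knockout.

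The more abundant mitochondrial mRNAs of the knockout library had lower shares of mitochondrial UMIs in members. mt-Cytb, the cytochrome b subunit of complex III, was 18.5% against 24.7% (log2 ratio -0.42). The complex I subunits mt-Nd1, mt-Nd2, mt-Nd4 and mt-Nd5 had log2 ratios of -0.51, -0.32, -0.52 and -0.51, and mt-Co1, the catalytic subunit of complex IV, of -0.61. mt-Nd3 and mt-Nd4l, also of complex I, were at -0.20 and -0.27. The complex IV subunits mt-Co3 and mt-Co2 stood at 0.23 and 0.04, and the ATP synthase subunits mt-Atp6 and mt-Atp8 at 0.13 and -0.04. mt-Nd6, which is the only mRNA transcribed from the light strand, went the other way, with 0.296% of mitochondrial UMIs against 0.210% (log2 ratio 0.50, interval 0.30 to 0.69) on 238 UMIs. In wild type members mt-Nd6 rested on 15 UMIs and its interval of -0.03 to 1.54 included no difference. Wild type mt-Cytb was 23.9% against 30.03% (log2 ratio -0.33), and mt-Nd4 and mt-Nd1 were at -0.31 and -0.24, whereas mt-Nd5 was at 0.15. Per barcode, mt-Cytb, mt-Nd4 and mt-Nd1 were nevertheless higher in wild type members, at 1.62-, 1.64- and 1.72-fold.

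**Figure D2:**
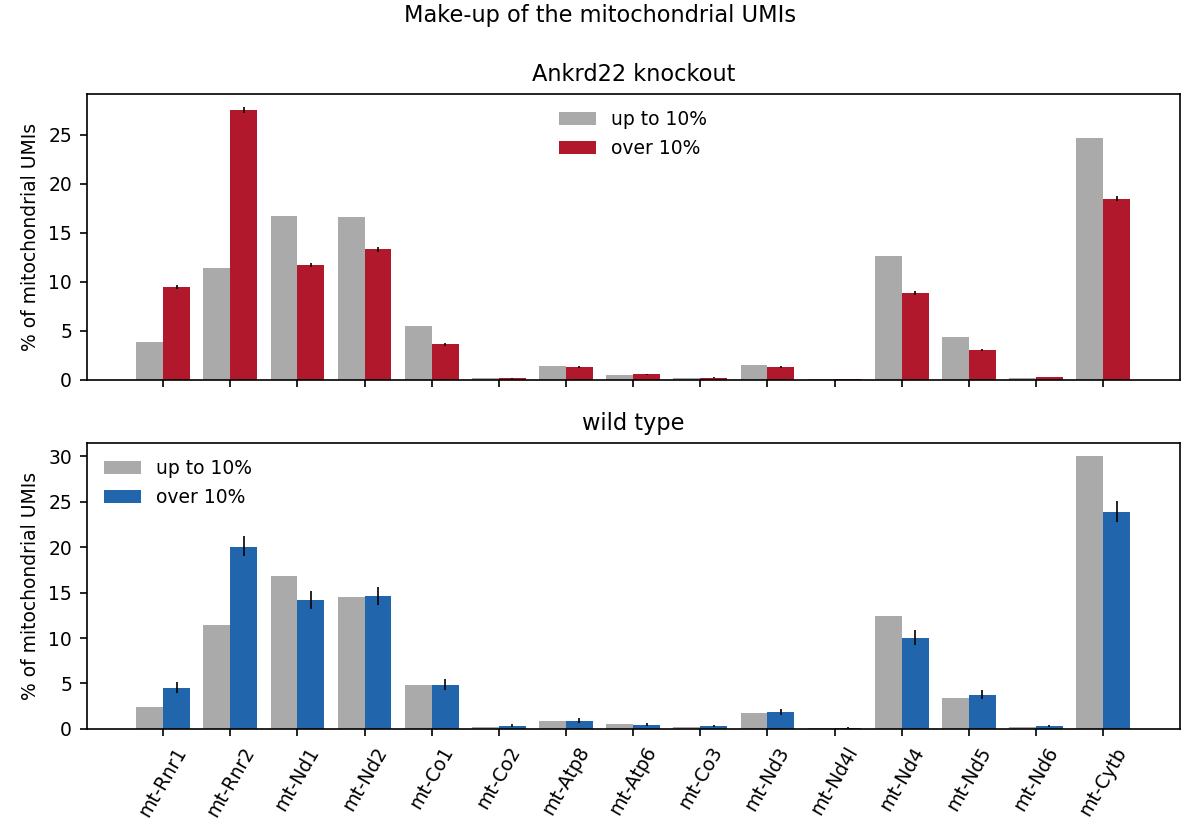
Share of mitochondrial UMIs (percent, bars from 0) of each mitochondrial ribosomal RNA and mRNA in members (coloured) and other barcodes (grey), 1 panel per library, with 95% intervals for counting error on the members' bars. The bar of mt-Rnr2 is at 27.5% against 11.4% in the knockout panel and at 20.1% against 11.4% in the wild type panel, and that of mt-Cytb is lower in members of both.

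Outside the mitochondria, levels are given as a percentage of all UMIs that are not mitochondrial, or in CPM, UMIs scaled to a fixed total for each sum, with log2 ratios of members over other barcodes after adding 1 CPM. Intervals of ratios have nothing added. Counts of genes at least 2-fold apart among those averaging 20 CPM or more over both sums were 2130 higher of 5951 in knockout members (35.8%) and 911 lower (15.3%). The wild type sums gave 3053 higher of 5355 (57%) and 937 lower (17.5%). These numbers are inflated upward, since 1 UMI is worth 5.81 CPM in the knockout members' sum and 59.96 CPM in the wild type members' sum, so that a few UMIs carry a rare gene past the filter. Among genes with at least 100 CPM in the other barcodes, a filter chosen after seeing the data, knockout members had 101 higher of 1307 (7.73%) and 542 lower (41.5%), and wild type members 151 higher of 1153 (13.1%) and 431 lower (37.4%). Scaling also moves the split. At a mean of 100 CPM or more the knockout had 403 higher of 1512 (26.7%) and 445 lower (29.4%), and the wild type 716 higher of 1616 (44.3%) and 307 lower (19%). With TMM factors from edgeR the knockout counts were 681 higher and 2339 lower and the wild type counts 955 and 2659, and with all UMIs as the base the knockout counts were 1030 and 1517. TMM lowers every log2 ratio by 0.97 for the knockout and 1.66 for the wild type, and scaling to all UMIs lowers them by 0.53 and 0.38. Scaling by the median of ratios raises them by 0.19 for the knockout and lowers them by 0.66 for the wild type. A positive ratio smaller than these shifts therefore changes sign on that scale, and the order of genes does not.

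Counted as UMIs per barcode, the repeat models and the nuclear noncoding RNAs had the most left among the gene lists outside the mitochondria. The median of all genes at a mean of 20 CPM or more stood at a log2 ratio of 0.46 for the knockout and 1.37 for the wild type. Of the other UMIs, the models at ribosomal RNA repeat sequence took 10.5% in knockout members and 0.304% in other knockout barcodes. The wild type shares were 1.86% and 0.141%. Per barcode, knockout members held 131% of the repeat-model UMIs of other barcodes and wild type members 62.9%. Almost all of these came from Gm42418 (chr17:39846958-39848788), with 17952 UMIs in knockout members, 104224 CPM against 3005 CPM (log2 ratio 5.12, interval 5.09 to 5.14). In number per barcode, Gm42418 averaged 66.7 UMIs in knockout members and 50.9 in others, with the same median of 36 in both and quartiles of 16 and 77 in members. Wild type members had 287 Gm42418 UMIs, with a median of 7 against 15. Gm42418 overlaps another model, AY036118, on the opposite strand, which had 0 UMIs in members and in other barcodes of both libraries. The strand setting of the count is not given in the sources used here, so reads of the 2 models may not be told apart.

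Mir6236 and Lars2 led the named genes. Mir6236 had 662 UMIs spread over 185 knockout members, 3843 CPM against 31.6 CPM (log2 ratio 6.88), which was 459% of the count per barcode elsewhere. In wild type members it had 63 UMIs, 16 of them in 1 barcode, and 3778 CPM against 44.1 CPM. Lars2, which encodes the mitochondrial leucyl-tRNA synthetase, had 647 UMIs over 190 knockout members, 3756 CPM against 66.2 CPM (log2 ratio 5.80), or 214% per barcode. Its wild type level was 1559 CPM against 67.4 CPM on 26 UMIs. Both genes therefore had more UMIs per member than per full-sized barcode in the knockout, like Gm42418. Whether UMIs on any of these genes match ribosomal RNA was not tested. Among barcodes with at least 500 other UMIs, thinned to that number, 59.1% of knockout members and 3.67% of others had a Lars2 UMI. For Mir6236 these were 47.3% and 2.004%. Without thinning the shares were 70.6% and 57.4% for Lars2 and 68.8% and 34.1% for Mir6236, at median depths of 398 and 15887 other UMIs. The UMIs of Mir6236 may come from any RNA that overlaps its 123 bases, and the mature microRNA, which has no run of A, is not what a 3' count measures.

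Nuclear noncoding RNAs took 7.76% of other UMIs in knockout members against 1.26%, and 5.43% against 0.488% in the wild type. Knockout members kept 23.2% and wild type members 52.7% of their UMIs per barcode. All 12 alternative settings gave a higher level in members in both libraries (log2 ratio of the sums 1.52 to 3.07 for the knockout and 1.30 to 3.68 for the wild type). Malat1, a nuclear speckle RNA (chr19:5795690-5802672), made up most of this group, with 73790 CPM against 12182 CPM in the knockout (log2 ratio 2.60, interval 2.57 to 2.62) and 51388 CPM against 4725 CPM in the wild type. Its number per barcode was nevertheless lower, 47.2 against 206 in the knockout. Knockout members differed widely among themselves, with a median of 9 Malat1 UMIs, quartiles of 2 and 64 and a highest value of 359. Wild type members had the same median of 9, with quartiles of 3 and 67.5. In both libraries the members thus ranged from nearly no Malat1 to the amount of a full barcode. Neat1, the scaffold of nuclear paraspeckles, was at 2525 CPM against 286 CPM (log2 ratio 3.14) for the knockout and 2159 CPM against 94.5 CPM for the wild type. Kcnq1ot1, an imprinted antisense RNA held on chromatin, was at 1068 CPM against 121 CPM for the knockout and rested on 8 UMIs for the wild type. Thinned to 500 UMIs, 65.5% of the 110 knockout members deep enough had a Neat1 UMI (interval 55.8 to 74.3%) against 12.96% of others. Among all barcodes without thinning, 41.3% of members and 86.8% of others had one. The B cell gene Cd79a had a UMI in 0 of the 110 thinned members, which allows up to 3.30% of barcodes with a UMI at this depth and sets no limit on barcodes expressing it, and in 0.56% of other barcodes. Unthinned, the shares were 0.372% and 5.08%.

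Transcripts known to be held in the nucleus with unspliced introns were higher as well. Their list took 1.12% of other UMIs in knockout members against 0.301%, and 1.21% against 0.280% in the wild type, with 14.0% and 20.4% left per barcode. Of 21 measured, 19 passed 2-fold as higher among knockout members and 20 among wild type ones, beside the 35.8% and 57% of all genes given above. Ogt, the enzyme that attaches N-acetylglucosamine to proteins and a known case of intron detention, was at 499 CPM against 45.1 CPM (log2 ratio 3.44). The splicing-linked genes Nktr, Pnisr, Luc7l2, Ccnl2 and Clk1 had log2 ratios of 3.11, 2.98, 2.81, 2.74 and 2.61. Ddx5 and Srsf7, which encode a splicing helicase and a splicing factor, did not reach 2-fold in the knockout (0.24 and 0.26).

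The classes of noncoding gene models measured were higher in members to very different degrees, while the list of snoRNA host RNAs was lower among knockout members (0.0581% against 0.0886%). Models of the annotation's TEC class, transcripts still awaiting experimental evidence, took 1.83% of other UMIs against 0.188% in the knockout (9.74-fold, 36.8% left per barcode). Wild type members gave 1.25% against 0.0967% (12.95-fold, 61.5% left). Sense intronic models took 0.164% against 0.0169% for the knockout and 0.0959% against 0.0103% for the wild type. Other classes of the knockout library were less raised, with antisense models at 2.96-fold, pseudogenes at 2.33-fold, processed transcripts at 1.81-fold, and long intergenic RNAs without Malat1 and the repeat models at 2.72-fold (10.3% left per barcode). Protein-coding genes took 77.1% of other UMIs in knockout members against 97.2%, and 89.1% against 98.3% in the wild type, with 3.00% of their UMIs left per barcode in the knockout.

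**Figure D3:**
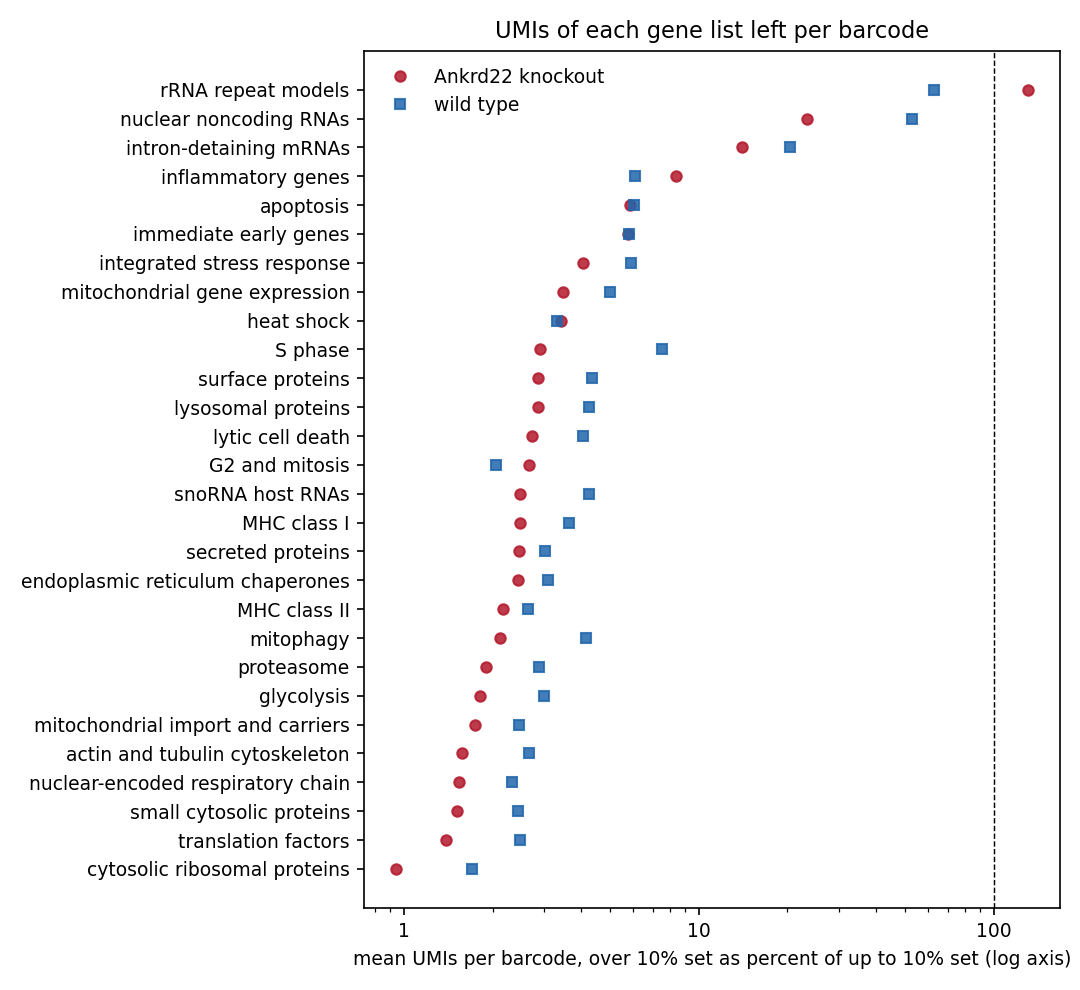
Mean UMIs per member as a percentage of the mean per other barcode (horizontal axis, log scale), for 28 gene lists, with circles for the knockout and squares for the wild type library. Ribosomal RNA repeat models lie at 131% for the knockout and 62.9% for the wild type, nuclear noncoding RNAs at 23.2% and 52.7%, and ribosomal protein mRNAs at 0.942% and 1.71%.

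Cytosolic mRNAs were the most depleted, and those of ribosomal proteins most of all the lists. Ribosomal protein mRNAs were 5.34% of other UMIs in knockout members and 21.4% in other barcodes, and 7.70% against 21.4% in the wild type. Per barcode, 0.942% and 1.71% of them were left. At the 2-fold limit all 79 measured were lower among knockout members, and 65 of 79 among wild type ones, beside 15.3% and 17.5% of all genes. The direction held for the sum of the list under all 12 alternative settings in each library (log2 ratio -2.97 to -1.32 and -3.13 to -0.52). Member by member, the ribosomal protein share had a median of 6.83% in the knockout (range 1.001 to 27.3%) against 21.6%, and of 9.13% in the wild type against 21.4%. Fau, which encodes a ribosomal protein fused to a ubiquitin-like protein, was at 1202 CPM against 5691 CPM (log2 ratio -2.24).

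Other mRNAs translated on free ribosomes followed, to a smaller degree. Counts of genes here are to be read beside the 35.8% of all knockout genes called higher and the 15.3% called lower. Translation factors were 0.871% against 2.37% in the knockout, 1 higher and 14 lower of 23, with 1.39% left per barcode. Eef1a1, the factor that brings tRNAs to the ribosome, was at 1225 CPM against 3844 CPM (log2 ratio -1.65). Tpt1, a translationally controlled protein gene, was at 1765 CPM against 7961 CPM (-2.17), and Npm1, a nucleolar chaperone gene, at 157 CPM against 775 CPM (-2.30). Actin and tubulin genes had 0 higher and 12 lower of 23, with 1.58% left. Actb, cytoplasmic actin, averaged 2.05 UMIs per knockout member against 155 in others, 3199 CPM against 9125 CPM (log2 ratio -1.51, interval -1.64 to -1.39). Small cytosolic proteins had 0 higher and 20 lower of 27, among them Fth1, the ferritin heavy chain, at 1585 CPM against 4059 CPM (-1.36), and Tmsb4x, the actin-binding thymosin, at 4377 CPM against 11160 CPM (-1.35). Wild type members had these at -0.85 and -1.03, Actb at -0.73 and Eef1a1 at -1.49. Glycolysis enzymes had 1 higher and 4 lower of 14, with Gapdh at -1.72 for the knockout and -1.89 for the wild type, and proteasome subunits 0 higher and 19 lower of 32. Thinning left only barcodes with at least 500 other UMIs. Of such knockout members, 70.0% had an Actb UMI against 95.6%, 29.1% an Eef1a1 UMI against 82.3% and 39.1% an Fth1 UMI against 82.8%. Unthinned, the shares of all knockout members were 75.1%, 48.0% and 57.2%, and those of others at least 99.3%.

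Nuclear genes for respiratory chain subunits and for import were lower in members, unlike the mitochondrial ribosomal RNAs, whereas Lars2 was higher. Whether the UMIs on Lars2 match ribosomal RNA was not tested. Nuclear-encoded respiratory chain subunits were 0.955% against 2.34% in the knockout, 0 higher and 52 lower of 74, with 1.54% left per barcode. Their wild type share was 1.01% against 2.06%, 2 higher and 39 lower of 74, with 2.33% left. Import proteins and carriers had 0 higher and 16 lower of 26 in the knockout. The list of genes mainly for mitochondrial DNA upkeep, transcription and RNA processing was near its level elsewhere (0.0743% against 0.0811%, 3 higher and 3 lower of 12). It leaves out most mitochondrial ribosomal protein genes and the tRNA synthetase genes, Lars2 included. The snoRNA host RNAs had 2.48% left per barcode among knockout members and 4.26% among wild type ones. Mitophagy genes had 1 higher and 5 lower of 13, and integrated stress response genes 1 higher and 0 lower of 5.

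The rule for named genes gave 12 genes on the low side, of which 11 had a UMI in knockout members. Sumo2, a ubiquitin-like modifier, was at 52.3 CPM against 364 CPM (log2 ratio -2.78), Edf1 at 52.3 CPM against 335 CPM (-2.66) and Hmgb1, a chromatin protein, at 58.1 CPM against 341 CPM (-2.53). Mrpl36, a mitochondrial ribosomal protein, had 1 UMI in the 269 members, and Mien1, Arpc1a, Map1lc3a and Wbp11 had 2 each. Kdelr1 and Gsto1 had 3 UMIs each and Eif3m, a translation initiation factor, 4. Gabarapl1 had 0 UMIs, at a level of 17.4 CPM in other barcodes that 3 UMIs of the members' sum would equal, so its depletion was not detectable at this depth. In wild type members Gabarapl1 and Wbp11 went the other way, on 3 and 2 UMIs (log2 ratios 3.30 and 1.12). On the high side, besides Mir6236, Lars2, Ogt, Neat1 and Kcnq1ot1, the rule gave Slfn4 (log2 ratio 3.94), Mir99ahg (3.69), Lilrb4a (3.56), Lcorl (3.36), Ccdc88c (3.29), Zc3h7a (3.24) and Nabp1 (3.14). Each of these 7 rested on 36 to 138 UMIs in knockout members and on 1 to 5 in wild type members. The mean of 50 CPM required for naming includes the members' own sums, where 1 wild type UMI is 59.96 CPM. A gene rare in other barcodes can pass through members alone and is then ranked on the same counts. The place of such genes on the high side is therefore in part set by the rule.

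More UMIs were left per barcode of lists translated at the endoplasmic reticulum than of the cytosolic lists above. Secreted protein genes were 8.06% of other UMIs against 12.4% in the knockout (1 higher and 8 lower of 33, 2.45% left per barcode) and 11.1% against 17.5% in the wild type. Lysosomal and surface protein genes each had 2.85% left in the knockout. Fn1, fibronectin, had 2115 UMIs at 12279 CPM against 8400 CPM in the knockout (log2 ratio 0.55, 5.52% left) and 11213 CPM against 7505 CPM in the wild type. Thbs1, thrombospondin, was at 2363 CPM against 1012 CPM and at 6776 CPM against 2820 CPM. The Fn1 ratio turns negative with TMM, as does the ratio of Thbs1 in the wild type. Within the secreted list the complement gene C4b and the coagulation factor gene F7 were at 0.76 and 0.69, whereas Pf4, Slpi, C1qa and Timp2 were at -1.30, -1.14, -1.07 and -1.32. Surface genes divided likewise. The adaptor genes Fcer1g and Tyrobp and the membrane protein gene Emp3 were at -1.76, -1.35 and -1.72, while the receptor genes Mertk, Ptprc, Lrp1 and Itgam were at 1.86, 1.56, 0.81 and 0.77. Of the surface genes measured, 4 were higher and 9 lower of 37. Lysosomal genes had 2 higher (among them Npc1 at 1.41) and 5 lower of 34, with Ctss at -1.11 and Npc2 at -1.10, and chaperones of the endoplasmic reticulum 2 higher and 8 lower of 28. Over all knockout genes 35.8% were called higher and 15.3% lower, and the lysosomal count of lower genes was near that share. Antigen presentation genes had 2.18% (class II) and 2.47% (class I) left in the knockout, and the cell cycle lists of S phase and of G2 and mitosis 2.91% and 2.66%.

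Transcript length ran along these divisions. Among 1288 protein-coding genes with at least 100 CPM in other knockout barcodes, Spearman's rho between spliced length and log2 ratio was 0.63, and for coding length 0.61. Among 1137 genes of the wild type it was 0.48. Leaving out ribosomal protein genes gave 0.62 over 1209 genes and 0.47 over 1058. These are descriptions across genes, which are not independent and share the libraries and their depth. In the knockout, the 322 genes with the shortest transcripts, up to about 1080 bases, together took 12.3% of other UMIs in members against 34.8%, and the 322 over 3156 bases 12.9% against 10.8%. The log2 ratio of the summed UMIs went from -1.50 in the shortest group through -1.03 and -0.45 to 0.26 in the longest. The same sums in the wild type were -1.16, -0.83, -0.17 and 0.51. Over all protein-coding genes at a mean of 20 CPM or more rho was 0.59 over 5672 genes in the knockout and 0.42 over 4985 in the wild type, and with other barcodes of like depth as the base 0.41 and 0.17.

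**Figure D4:**
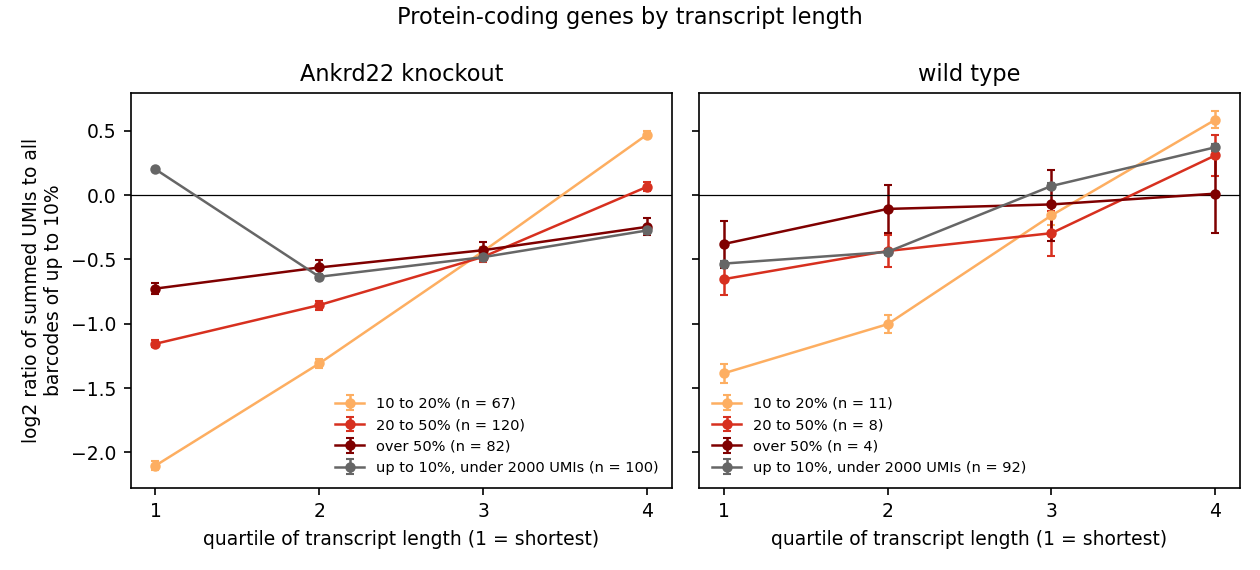
Log2 ratio of summed UMIs, against all other barcodes, for 4 equal groups of protein-coding genes ordered by transcript length, in members split by mitochondrial share and, in grey, in shallow barcodes of low share, with 95% intervals for counting error. In the knockout library the slope runs from -2.10 to 0.47 for shares of 10 to 20% and from -0.73 to -0.25 for shares over 50%.

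The members were not of 1 kind, and their make-up differed with the mitochondrial share. Knockout barcodes were placed in bins by share, which is the quantity the rule used, so the order of the bins carries no test. Between 10 and 20% (67 barcodes, median 1156 other UMIs) Malat1 took 9.74% of other UMIs, between 20 and 50% (120 barcodes, 407.5 other UMIs) 5.54%, and over 50% (82 barcodes, 231 other UMIs) 2.60%. Barcodes of 1 to 2% held 1.21% and those of 5 to 10% held 5.98%. Per barcode, Malat1 was kept at 154 UMIs in the bin of 5 to 10% and 130 in that of 10 to 20%, against 212 at 1 to 2%, and then dropped to 29.1 and 6.30. Among these bins Malat1 was thus most prominent between 10 and 20%.

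TEC models and intron-detaining transcripts were highest in the same bin. TEC models were 2.65% of other UMIs at 10 to 20%, 1.17% at 20 to 50% and 0.241% over 50%, where 0.185% was the level at 1 to 2%. Intron-detaining mRNAs went through 1.37%, 0.989% and 0.372%. Ribosomal protein mRNAs ran opposite, at 21.5% for shares of 1 to 2%, 10.0% at 5 to 10%, 3.44% at 10 to 20%, 6.74% at 20 to 50% and 9.46% over 50%. Their number per barcode still went down throughout, from 3771 at 1 to 2% to 258, 45.9, 35.4 and 22.9. In ribosomal protein share the bin over 50% thus lay nearer to barcodes of low share than the bin of 10 to 20% did. The length correlation took the same order, with a rho of 0.68 at 10 to 20%, 0.48 at 20 to 50% and 0.12 over 50%. Depth per barcode falls in that order too, and counting noise lowers a rank correlation. Depth and make-up therefore cannot be told apart in these rho values. Secreted protein mRNAs were 6.54%, 9.06% and 11.7% in these 3 bins, where 12.5% was the level at 1 to 2%.

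Ribosomal RNA repeat UMIs behaved differently from the nuclear RNAs. Gm42418 took 5.14%, 14.1% and 22.6% of other UMIs in the 3 knockout bins above 10%, against 0.288% at 1 to 2%. Its number per barcode hardly moved, with 50.5 at 1 to 2%, 55.7 at 5 to 10%, then 68.5, 74.0 and 54.7. Mitochondrial ribosomal RNAs were 14.6% of mitochondrial UMIs at 1 to 2%, 31.5% at 5 to 10%, then 32.3%, 40.0% and 36.2%. Lars2 and Mir6236 took 0.966% and 0.790% of other UMIs over 50%. Median mitochondrial UMIs went from 204 to 247 and 397.5 across the 3 bins, so that the highest shares came with more mitochondrial UMIs as well as fewer others. The lower limit of total UMIs bears on this order, since a barcode with 231 other UMIs would not be in the matrix without more mitochondrial UMIs than that.

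Wild type members showed the same order on far fewer barcodes, 11, 8 and 4 in the 3 bins. Malat1 was 5.72%, 4.03% and 0.605% of other UMIs, repeat models 1.06%, 4.36% and 5.45%, and TEC models 1.45%, 0.618% and 0.404%. Ribosomal protein mRNAs were 6.80%, 10.5% and 11.8%. Mitochondrial ribosomal RNAs did not follow the knockout order, with 24.6%, 27.6% and 20.7% of mitochondrial UMIs.

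**Figure D5:**
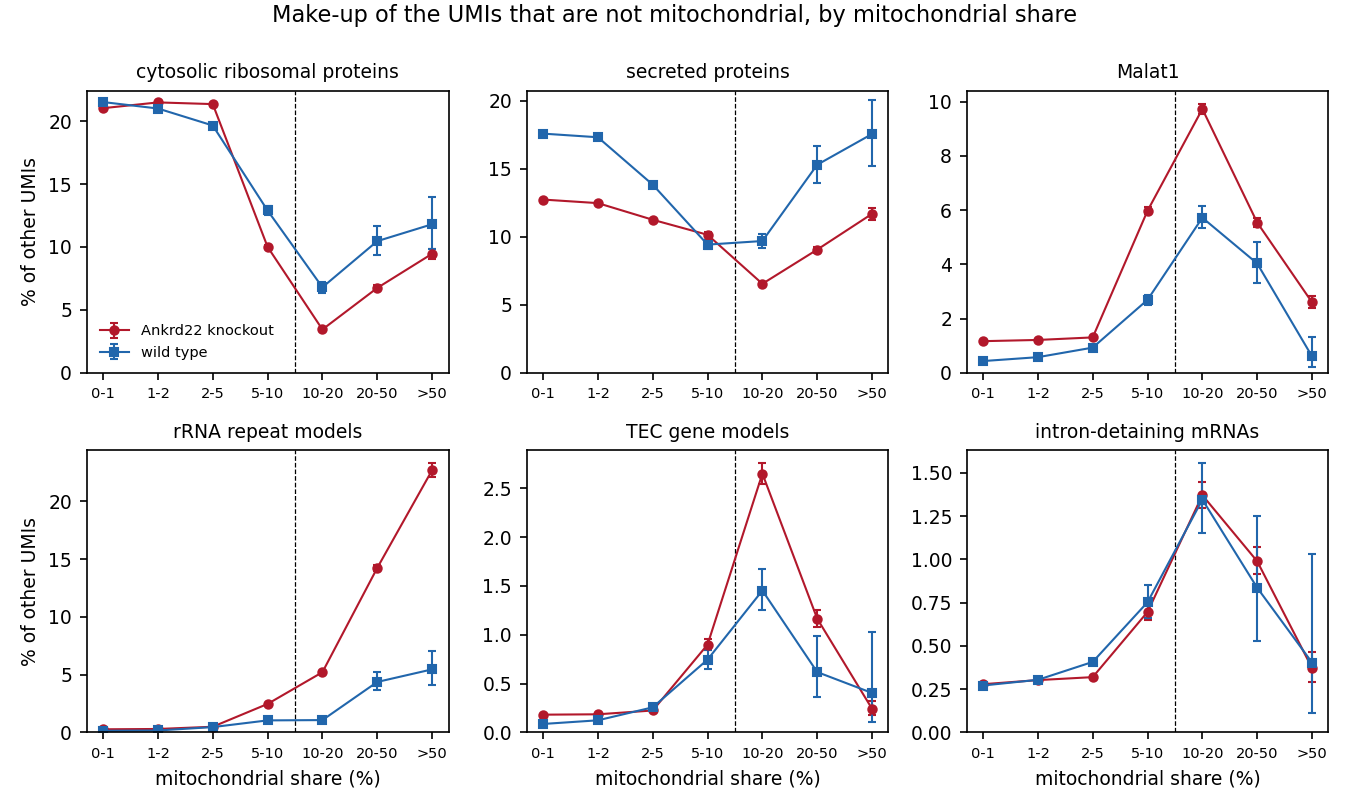
Share of the UMIs that are not mitochondrial taken by gene lists, TEC models and Malat1 (vertical axes, percent) across bins of mitochondrial share (horizontal axes, percent), 1 line per library, with 95% intervals for counting error and the 10% threshold dashed. In the knockout library Malat1 is at 9.74% in the bin of 10 to 20% and at 2.60% over 50%, while the ribosomal RNA repeat models are highest over 50%.

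Shallow barcodes of low mitochondrial share were set beside the members. Other knockout barcodes with under 2000 UMIs held 1.83% of other UMIs on repeat models, 3.53% on nuclear noncoding RNAs, 0.451% on intron-detaining mRNAs and 12.6% on ribosomal protein mRNAs. The wild type values were 1.14%, 1.73%, 0.527% and 12.3%. In both libraries these lie between those of members and those of all other barcodes for each of the 4 lists. Lists translated at the endoplasmic reticulum did not follow this in the knockout, where shallow barcodes of low share were as far from the other barcodes as members were. They held 7.28% of other UMIs on secreted protein genes against 8.06% in members, 0.549% on chaperones of the endoplasmic reticulum against 0.578%, 1.29% on surface genes against 1.46% and 1.09% on lysosomal genes against 1.08%. In the wild type, shallow barcodes lay between for secreted and chaperone genes, at 12.7% and 0.939%. For lysosomal genes they held 1.86%, above members (1.31%) and all other barcodes (1.47%). Surface genes were likewise at 1.84%, against 1.63% and 1.77%. As another base, the 73 knockout barcodes of low share and like depth (median 766 other UMIs) were used, and likewise 71 wild type ones. Against these, the repeat model, nuclear noncoding, intron-detaining and ribosomal protein lists had the same directions.

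Early response, inflammatory and apoptosis lists had more UMIs left per knockout barcode than the ribosomal protein, translation and cytoskeleton lists. Immediate early genes, which macrophages switch on within minutes of handling or stimulation, took 1.204% of other UMIs in knockout members against 0.790%, with 5.76% left per barcode and 8 higher and 0 lower of 20, which is near the 35.8% of all genes called higher. The log2 ratio of their sum, 0.61, turned to -0.36 with TMM and kept its sign under the 11 other alternatives. Members of the list above 2-fold were Fosb (2.72, on 24 UMIs), Nr4a1 (2.30), Fosl2 (2.26), Egr1 (1.66), Klf6 (1.44), Ier5 (1.28), Jun (1.15) and Klf4 (1.10), while Fos was at 0.21 and Klf2 at -0.29. Egr1, a zinc finger factor, was at 975 CPM against 307 CPM in the knockout, but 1 UMI was counted in all wild type members. The wild type sum was 1.51% against 1.24%, with 5 higher and 2 lower of 21, below the 57% of all wild type genes called higher, and turned negative under all 3 other scalings.

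Inflammatory genes took 0.293% against 0.132% in knockout members, with 7 higher and 0 lower of 10, beside 35.8% of all knockout genes called higher. Of these 7, Il1b and Ccl3 were at 9.82 and 13.1 CPM in other barcodes. They passed the 20 CPM filter only through members, so the count is inflated upward. The sum of the list stayed higher under all 12 alternatives (log2 ratio 0.18 to 1.53). Nfkbiz, an inducible regulator of NF-kB, was at 2.65, Rgs1 at 2.03, Cxcl1 at 1.47 and Ccrl2 at 1.40. Il1b was at 2.13 on 8 UMIs and Ccl3 at 1.56 on 7. Cxcl2, a neutrophil chemokine, was at 906 CPM against 416 CPM (1.12), with 36 of its 156 UMIs in 1 barcode (23.1%). The wild type list was 1.69% against 1.32%, 7 higher and 2 lower of 17, also below that 57%, and negative under all 3 other scalings. Apoptosis regulators were 0.2003% against 0.130% in the knockout, with the inhibitors Birc3 (2.64), Bcl2 (2.16), Cflar (1.97) and Xiap (1.03) and the apoptosome scaffold Apaf1 (2.33) higher, and Bcl2a1b, Diablo, Bad and Fas lower, of 16; their sum turned to -0.34 with TMM. Genes of lytic cell death had 5 higher and 2 lower of 10, and heat shock genes 4 higher and 4 lower of 16. Counts for apoptosis, lytic cell death and heat shock rest on few genes, and 35.8% of all knockout genes were called higher and 15.3% lower. Bcl2, on 7 UMIs, was at 8.31 CPM in other barcodes, and Il1b, of the lytic list, at 9.82 CPM. Both passed the 20 CPM filter only through members, so the apoptosis and lytic counts are inflated upward. Neither the inhibitors nor the promoters of apoptosis had a common direction.

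Macrophage markers had far more UMIs in members than markers of other cell types had. All 13 had UMIs in knockout members and 12 of 13 in wild type members, with Fcgr1 at 0. Every member of both libraries had at least 1 such UMI. These markers were abundant in other barcodes, so 1 UMI does not show which cell a member held. The summed level of the macrophage markers was lower in members than in other barcodes. It was 23078 CPM against 41020 CPM for the knockout and 46051 CPM against 83066 CPM for the wild type. The difference came mainly through Lyz2, the lysozyme (13585 CPM against 25716 CPM in the knockout). Adgre1, which encodes F4/80, was at 668 CPM against 619 CPM for the knockout and 779.5 CPM against 672 CPM for the wild type, and Csf1r, the receptor for the macrophage growth factor, at 372 CPM against 336 CPM in the knockout. The 10 markers of large peritoneal macrophages were all detected, in 259 of 269 and 21 of 23 members, but most were lower in members. Gata6 was higher, at 319 CPM against 170 CPM for the knockout and 420 CPM against 148 CPM for the wild type. In the knockout, Vsig4, Icam2, Cxcl13, Prg4, Cd5l and Alox15 had log2 ratios of -1.28, -0.84, -0.74, -0.71, -0.66 and -0.22. Timd4, F5 and Selp were at 0.18, 0.16 and 0.11. In the wild type, Vsig4, Timd4, Cd5l, Cxcl13, Prg4 and Icam2 were at -1.73, -1.37, -1.29, -1.07, -0.88 and -0.73. Alox15, Selp and F5 were at -0.26, -0.08 and 0.11. Among barcodes deep enough to be thinned to 500 UMIs, 20.9% of knockout members and 25.3% of others had an Adgre1 UMI. For Csf1r these were 15.5% and 15.6%. Unthinned, the shares were 31.6% and 96.9% for Adgre1 and 19.0% and 95.8% for Csf1r. Markers of small peritoneal macrophages summed to 598 CPM against 1014 CPM in the knockout.

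Most defining markers of other cells were at 0 in members, and B cell and erythroid markers were not all so. The lists for dendritic cells, T and NK cells, neutrophils, eosinophils, mast cells, mesothelial cells and fibroblasts, and endothelial cells had 0 UMIs in members of both libraries, where 3 UMIs would be 17.4 CPM for the knockout and 179.9 CPM for the wild type. B cell markers had 23 UMIs in 18 knockout members, 134 CPM against 59.8 CPM in other barcodes, and 2 UMIs in wild type members. Of the 23 UMIs, 15 were on Bank1, a B cell scaffold gene, at 87.1 CPM against 32.0 CPM, and Ebf1, Ighd and Pax5 had 2, 1 and 1, while Ms4a1 and Iglc2 were among those at 0. Their part in the results was not tested. Erythroid markers had 24 UMIs in 22 knockout members, 139 CPM against 1451 CPM in other barcodes, with Alas2 among those at 0, and platelet markers 0 UMIs and 1 UMI. None of the members was among the barcodes with the highest doublet scores.

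Between the libraries, knockout members were compared with wild type members, on 172245 and 16677 other UMIs. Among 6036 genes past the same 20 CPM filter, 1539 were at least 2-fold higher in knockout members (25.5%) and 2183 lower (36.2%), where other barcodes had 61 (1.27%) and 86 (1.79%) of 4801. With TMM the members' counts were 2471 higher and 1036 lower. The depth of the wild type sum, at 59.96 CPM per UMI, limits these counts. The mix of shares differs too, with medians of 37.9% and 20.1%, so genotype and mitochondrial share cannot be told apart in this comparison.

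Several genes with many UMIs on both sides differed between the libraries in the same direction in members and in other barcodes. Cxcl2 was at 906 CPM in knockout members and 9294 CPM in wild type members (log2 ratio of knockout over wild type -3.36, and -4.35 in other barcodes), on 156 and 155 UMIs. Lyz2 had -1.23 in members and -1.21 in others, Thbs1 -1.52 and -1.48, Apoe -0.81 and -0.85, Cxcl13 -2.37 and -2.70, and C1qa -1.73 and -1.42. Slpi, a protease inhibitor, and Fn1 differed little on either side, at 0.05 and 0.05 and at 0.13 and 0.16. Saa3, an acute phase gene, was at 1.08 and 0.92, and Pf4, a platelet factor gene, at -2.08 and -1.49. The ratios of Lyz2, Thbs1, Apoe, Slpi, Fn1 and Saa3 in the members and in others lay close together, and those of Cxcl2 and Pf4 lay further apart.

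For other transcripts the ratio between the libraries was further from that in other barcodes or had the opposite sign. Gm42418 had a log2 ratio of knockout over wild type of 2.60 in members and 1.12 in others, Malat1 0.52 and 1.37, and Actb -0.77 and 0.02. Ribosomal protein mRNAs as a list were at -0.53 in members and 0.00 in others, and mitochondrial ribosomal RNAs, within mitochondrial UMIs, at 0.59 and 0.13. The rule for named genes gave Kif5b, Spp1, Cd24a, Cbl and Srek1 as higher in knockout members, all with 0 UMIs in wild type members. Against 3 UMIs of the wild type sum, Spp1, osteopontin, was at least 1.84-fold higher on 57 UMIs, and Kif5b, Cd24a, Cbl and Srek1 at least 1.90-, 1.74-, 1.71- and 1.65-fold. The lower genes were Gabarapl1 (0 UMIs in knockout and 3 in wild type members), Tnfaip3 (1 and 6), Nlrp3 (1 and 4), Tsfm (1 and 4) and Ccrl2 (11 and 31, of which 21 came from 1 barcode). This rule uses the members' ratio alone. Tnfaip3, Nlrp3 and Ccrl2 were also lower in other knockout barcodes than in other wild type ones. Their levels there were 4.70 against 137 CPM, 13.8 against 64.6 CPM and 23.5 against 420 CPM. Gabarapl1 was at 17.4 CPM in other barcodes of both libraries.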

How the data were processed

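Gene counts were the UMI counts that the authors deposited, 1 matrix per library, and per the file headers Cell Ranger 6.1.2 made them. The submitters' processing notes also list bcl2fastq, Seurat 4.1.0 and the mm9 assembly, while all 55450 feature identifiers are in GENCODE release M21 on GRCm38, which gave biotypes, lengths and coordinates. Nothing was left out before analysis: each library has the barcodes deposited, and the matrices hold called cells. The median depth of members was 722 and 636 UMIs, and of the other barcodes 16135 and 14591.5.

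UMIs were summed over members and over other barcodes of the same library, which is no replicate. Sums were scaled to the UMIs that are not mitochondrial, and log2 ratios had 1 CPM added. Genes at a mean of 20 CPM or more were counted at 2-fold, and list members were counted at the same threshold. Intervals are exact binomial 95% intervals. Limits for a count of 0 use 3 UMIs. Shares of barcodes with a UMI were taken after thinning to 500 UMIs (seed 0), leaving out shallower barcodes. Scrublet's automatic threshold called 3 and 1 barcodes (0.0447% and 0.0158%), which is too few to have worked, so the 360 and 319 highest scores were removed as an alternative. The script for ratios was checked on simulated data.

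Named genes were at a mean of 50 CPM over the 4 sums and were the 12 highest and 12 lowest by the knockout ratio, since the wild type members held under 20000 other UMIs. Between libraries they were the 5 highest and 5 lowest. Mitochondrial, ribosomal protein, immunoglobulin, haemoglobin and histone genes, Ankrd22 and unnamed models were left out. From each of 30 gene lists, up to 4 members with the largest ratio were open to naming, as were those that a list's role turns on. Other genes named in the text were chosen after their values were seen, and so was Gm42418. The members, lists and 13 marker lists were chosen with earlier results of these data known. The symbols Snhg4, Ndufb1 and Prorp were not found. Scrublet ran in scanpy 1.11.5, TMM in edgeR 4.0.16 and the rest in Python 3.11.15 with scipy 1.17.1, numpy 2.4.6 and pandas 2.3.3. Mature microRNA sequence is from RefSeq. Results on some genes are not reported here.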

Additional observations from a re-analysis of the deposited data

How the results depend on the processing

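The share of members changed with its threshold. It was 4.68% and 0.618% (knockout and wild type) at 5%, 3.01% and 0.190% at 20%, and 1.196% and 0.144% among barcodes with at least 500 genes, and 3.49% in the knockout from the 13 mRNAs alone. Doublet removal and removal of barcodes of other cell types took out 0 members, so only the total changed. The share stayed within its interval, which is no check of it.

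Knockout counts of genes 2-fold higher and lower were 681 and 2339 with TMM, 1030 and 1517 scaled to all UMIs, 5160 and 2768 with no filter, 403 and 445 at a mean of 100 CPM and, a setting added after seeing the data, 101 and 542 at 100 CPM in other barcodes. At 5% 592 were lower, and with equal weight per barcode 1385 were higher. Wild type counts were 955 and 2659 with TMM, 1105 and 1711 at 20%, 2011 and 1565 against barcodes of like depth, 716 and 307 at a mean of 100 CPM and 151 and 431 at 100 CPM in other barcodes. At 5% 565 were lower and with no filter 6886. Between libraries the counts were 2471 and 1036 with TMM, 909 and 1218 at 5%, and 2434 and 1117 at 20%. Spearman's coefficient for length was 0.408 and 0.170 against barcodes of like depth and 0.709 and 0.637 at a mean of 100 CPM, both added after seeing the data. The mitochondrial ribosomal share in the knockout was 36.4% at 5%, 38.0% at 20%, 32.1% with at least 500 genes and 38.6% with equal weight, and in the wild type 21.9% at 5%, settings also added later.

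No named gene changed sign in the knockout. In the wild type, with 1 to 5 UMIs each, log2 ratios changed sign at 20% for Slfn4 (-3.69), Lilrb4a (-3.92), Ogt (-4.69), Lcorl (-3.68), Ccdc88c (-4.46), Nabp1 (-3.91) and Wbp11 (-5.80). Without the 5 deepest members Lilrb4a was at -3.92, Lcorl at -3.68, Ccdc88c at -4.46 and Wbp11 at -5.80. With equal weight Ccdc88c was at -0.22 and Wbp11 at -0.0875, with TMM at -0.14 and -0.52, and Ccdc88c was at -0.31 against barcodes of like depth. Tsfm between libraries was at 3.71 at 20%. These settings leave fewer members or rescale, and other causes were not tested.

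No paired analysis was possible because each genotype had 1 library and the labels give no replicate numbers. Depth limits the wild type most, with 23 members and 16677 other UMIs, so that genes and lists with few UMIs there carry wide counting intervals. A count of 0 in members leaves up to 17.4 CPM for knockout members and 179.9 CPM for wild type ones. The number of mice per library, their handling and the time to capture are not given in the sources used here, so any difference between libraries in share or make-up cannot be told apart from preparation.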
